A study of Danio rerio with 8 samples.

Results

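The genes plin2 (ENSDARG00000042332), fabp11a (ENSDARG00000017299), lpl (ENSDARG00000087697), cd36 (ENSDARG00000032639) and pparg (ENSDARG00000031848) were followed through 8 zebrafish melanomas. They were taken by gene ID for their known roles in lipid droplets and fatty acid uptake, and they are 5 of the 22416 genes listed. Control tumours were Tg(mitfa:egfp) (n = 3) and test tumours were Tg(mitfa:dgat1a) (n = 5). All 8 tumours came from fish labelled tp53m214K/m214k, mitfa-/- and nras G12D, and they were age-matched and taken at 10 to 12 weeks. The design text says that dgat1a was overexpressed with the miniCoopR system, in which a vector restores mitfa to fish without it and carries a chosen gene along with it. Both transgenes were driven by the mitfa promoter, which is active in pigment cells, whereas the RNA came from whole removed tumours with all the cells they held. In such bulk samples, fewer cells of a type and less RNA per cell cannot be told apart. The labels do not say that each tumour came from a separate fish, so p-values measure the spread between these samples only.

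The transgene dgat1a encodes diacylglycerol O-acyltransferase, the enzyme that adds the last fatty acid to make triacylglycerol, the fat stored in lipid droplets. The fatty acids come from outside the cell or from synthesis within it. Lipoprotein lipase, encoded by lpl, releases fatty acids from lipoprotein particles, CD36 helps them across the cell membrane, and fatty acid-binding proteins such as the product of fabp11a carry them in the cytosol. Stored fat is coated by perilipins, of which perilipin 2, encoded by plin2, is the form found on droplets of most cell types in mammals. In mammals PPARG, the nuclear receptor encoded by pparg, binds fatty acids and their derivatives and switches on genes of fat uptake and storage, among them the mammalian counterparts of the other members.

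Levels are given in fpm, the unit of the authors' depth-scaled signal, which is not divided by gene length, so levels were not compared between genes. The libraries held 20936089 to 26865735 reads, and 3 reads corresponded to between 0.109 and 0.138 fpm. The library of egfp replicate 1 stood apart, with 1232 genes listed at 0 against 353 to 777 in the other 7. It also had the lowest summed levels of the markers of several other cell types: 253.4 fpm for fibroblast and matrix against 909.7 to 2328 in the other 7, 398.6 for epidermis against 1347 to 4817, and 19.0 for adipocytes against 143.1 to 244.8. Not every marker was low there. The erythrocyte list was highest in egfp replicate 1, at 680.7 fpm against 58.0 to 342.1 in the other 7. Of the epidermis list, cdh1 was at 360.9 fpm in it, exceeded only by dgat1a replicate 4 (422.7 fpm). The part of these cells in the results that rest on egfp replicate 1 was not tested. The symbol DGAT1 belongs to 2 IDs of the symbol table. The first, ENSDARG00000103503, was at 39.8, 75.1 and 26.5 fpm in the egfp tumours and at 4160, 3002, 2623, 2223 and 3069 fpm in the dgat1a tumours, in the order of their replicate numbers. The melanocyte label was checked on 10 marker IDs, all of which had more than 3 reads in every library, with summed levels of 5731 to 7204 fpm in egfp and 3555 to 18700 fpm in dgat1a tumours. Of these IDs, those with the symbol MITF are no check of the label, since the vector restores mitfa by design. The sums still include MITF ENSDARG00000003732, at 1609 to 2851 fpm in egfp and 684.9 to 1565 fpm in dgat1a tumours. Another large part came from pmela, at 1433 to 2373 fpm in egfp and 1398 to 13275 fpm in dgat1a tumours. In egfp replicate 1, TYRP1 ENSDARG00000056151 (1957 fpm) and this MITF ID (1807 fpm) were above pmela.

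None of the 5 genes differed between dgat1a and egfp tumours beyond the spread between tumours, and for each of them the ranges of the groups overlapped. With limma on log2(fpm + 0.5), 0 of the 4 members that could be tested had an adjusted p under 0.05 (Benjamini-Hochberg over all 16853 tested genes), and 0 had an unadjusted p under 0.05, against 15.0% of all tested genes. The fifth, cd36, had too few reads to be tested. Over all tested genes limma called 0.0534%, edgeR's quasi-likelihood test called 0.0178% and DESeq2 called 5.14%, and neither of these other tools called a member. Groups did not overlap in 10.4% of tested genes and in 0 of the 5 members.

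The droplet coat gene plin2 varied most between tumours of the 4 members tested. It was at 1.497, 9.12 and 0.386 fpm in egfp replicates 1 to 3, from 34, 207 and 10 reads. The dgat1a tumours were at 2.77, 1.21, 1.11, 1.13 and 0.764 fpm in replicates 1 to 5, from 63, 29, 24, 31 and 20 reads. Both the highest and the lowest value of the 8 thus fell in the egfp group, and all 5 dgat1a tumours lay between them. The highest value was 23.6 times the lowest. The means were 3.67 ± 4.76 fpm (SD, n = 3) in egfp and 1.40 ± 0.787 fpm (SD, n = 5) in dgat1a tumours. On the log2 scale the difference, dgat1a minus egfp, was -0.52 (SE 0.70, 95% interval -2.09 to 1.047, limma adjusted p = 0.738). Its exact permutation p was 0.607, two-sided over all 56 splits of the 8 tumours into 3 and 5, where the smallest possible p is 0.0357. Fitted on reads, it was -1.41 with edgeR (adjusted p = 0.432) and -1.39 with DESeq2 (adjusted p = 0.408). None of these tests separated the groups, and the sign rested on egfp replicate 2, without which the difference was 0.43. The spread within groups was 1.09 log2 units, and 90.3% of tested genes had a smaller one.

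The cytosolic carrier gene fabp11a varied little between tumours and rested on the most reads of the members, 1047 to 1997 per tumour. Its level was 46.1, 75.5 and 46.7 fpm in the egfp tumours. In the dgat1a tumours it was 80.3, 55.2, 92.0, 61.9 and 51.5 fpm. The highest values were in dgat1a replicates 3 and 1, and egfp replicate 2 came next, above the other 3 dgat1a tumours. The means were 56.1 ± 16.8 fpm (SD, n = 3) and 68.2 ± 17.3 fpm (SD, n = 5). The log2 difference was 0.28 (SE 0.27, 95% interval -0.31 to 0.88, limma adjusted p = 0.626, exact permutation p = 0.357), which as a fold is 1.22 with bounds of 0.805 and 1.84. Its within-group spread was 0.371 log2 units, larger than that of 36.7% of tested genes.

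Lipoprotein lipase, lpl, was on average higher in the dgat1a tumours, by a difference inside its error. The egfp tumours were at 0.837, 2.91 and 1.12 fpm and the dgat1a tumours at 5.36, 2.63, 4.56, 1.20 and 1.83 fpm, from 19 to 122 reads. Only dgat1a replicates 1 and 3 exceeded the highest egfp tumour, replicate 2. The means were 1.62 ± 1.12 fpm (SD, n = 3) and 3.12 ± 1.78 fpm (SD, n = 5), and the log2 difference was 0.74 (SE 0.50, 95% interval -0.39 to 1.88, limma adjusted p = 0.497, exact permutation p = 0.250). The bounds as folds were 0.763 and 3.675, so neither no change nor a rise of more than 3-fold lay outside the interval. The difference was 0.47 without egfp replicate 1 and 1.15 without egfp replicate 2. The within-group spread of 0.736 log2 units was larger than that of 77.4% of tested genes.

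The fatty acid translocase gene cd36 was close to absent from these libraries. It had 0, 1 and 2 reads in the egfp tumours and 1, 0, 26, 1 and 4 reads in the dgat1a tumours. Of the 35 reads in all, 26 were in dgat1a replicate 3, at 1.20 fpm, and the next highest tumour, dgat1a replicate 5, was at 0.153 fpm. Apart from those tumours every library was at or under the level of 3 reads, so no fold is given. The mean of 0.194 fpm was under the minimum of 1 fpm for testing, and the exact permutation p of its log2 values was 0.571. The summed reads were 3 over the 3 egfp tumours and 32 over the 5 dgat1a tumours, or 6 over the 4 dgat1a tumours without replicate 3. At this depth only a level like that of dgat1a replicate 3 stood out, and smaller differences in cd36 could not be assessed.

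The nuclear receptor gene pparg had close means in both groups. The egfp tumours were at 2.38, 2.86 and 1.39 fpm, and the dgat1a tumours were at 2.11, 3.09, 1.47, 2.01 and 1.41 fpm, from 32 to 74 reads. Each group held both high and low tumours, and the highest of the 8 was 2.22 times the lowest. The means were 2.21 ± 0.752 fpm (SD, n = 3) and 2.02 ± 0.673 fpm (SD, n = 5). The log2 difference was -0.10 (SE 0.35, 95% interval -0.90 to 0.69, limma adjusted p = 0.908, exact permutation p = 0.714). A missed threshold does not show equal levels, and the interval as folds ran from 0.537 to 1.611. The sign turned when egfp replicate 2 was left out, to 0.07. The within-group spread was 0.389 log2 units, larger than that of 40.0% of tested genes and close to that of fabp11a.

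**Figure D1:**
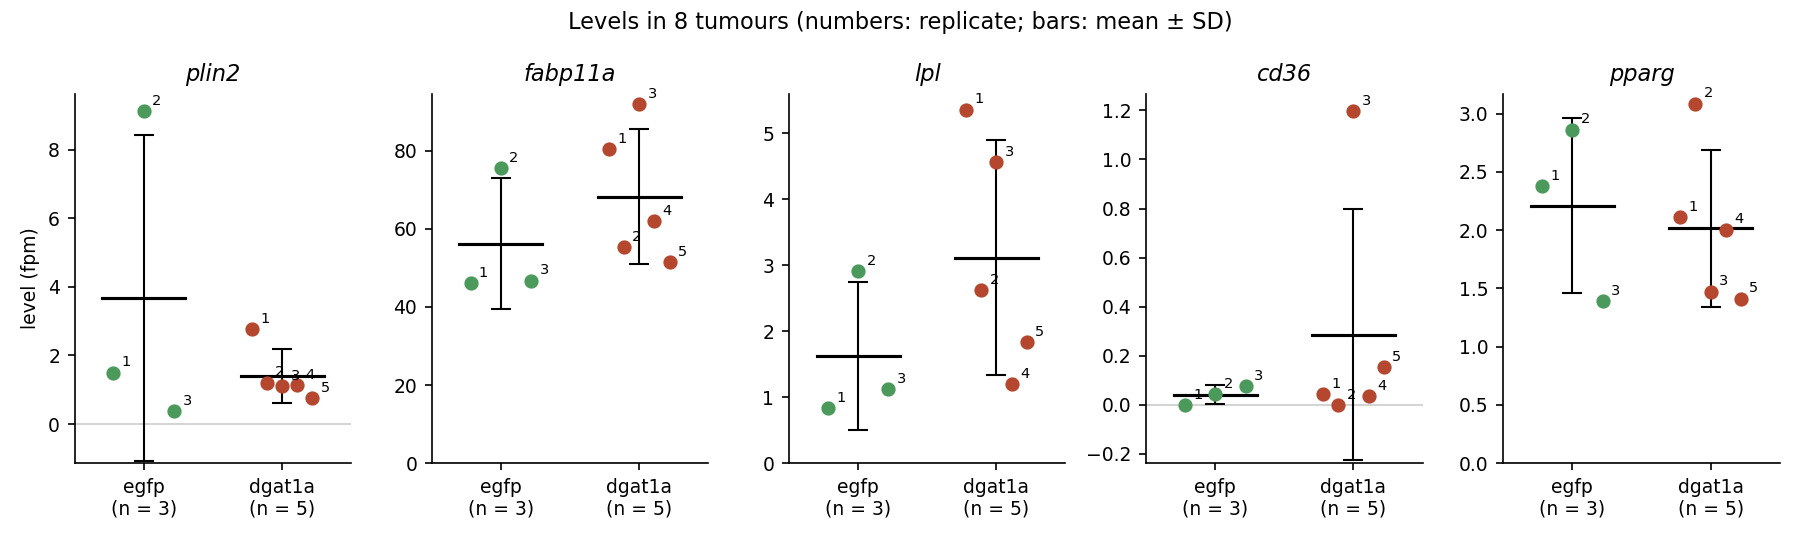
Level in fpm (linear axis, one scale per gene) of plin2, fabp11a, lpl, cd36 and pparg in each of the 3 egfp and 5 dgat1a tumours, with replicate numbers beside the points, a horizontal line at the mean and bars of 1 SD. The groups overlap in every panel; egfp replicate 2 stands alone for plin2 at 9.12 fpm and dgat1a replicate 3 stands alone for cd36 at 1.20 fpm.

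The authors' deposited table called none of the 5 genes either. It lists log2 fold changes of -0.96 (SE 0.58, adjusted p = 0.381) for plin2, 0.26 (SE 0.30, adjusted p = 0.694) for fabp11a, 0.75 (SE 0.50, adjusted p = 0.441) for lpl and -0.12 (SE 0.39, adjusted p = 0.916) for pparg. For cd36 the authors' deposited table gives 0.81 (SE 0.60) with no p-value. The same source called 4.34% of the 18977 genes for which it gives an adjusted p. For the members other than cd36, its fold changes were smaller in size than those of DESeq2 fitted here on reads. The latter were -1.39 for plin2, 0.29 for fabp11a, 0.95 for lpl and -0.13 for pparg. The reason was not tested.

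Tumours that were high in 1 member were in part high in another. Over the 8 tumours fabp11a and lpl followed each other most closely, with Pearson's r of 0.865 (exact permutation p = 0.00898) and Spearman's rho of 0.905 (exact permutation p = 0.00456). Adjusted over the 10 pairs of members, these p-values were 0.0898 and 0.0456. Both genes were lowest in egfp replicates 1 and 3 and high in dgat1a replicates 1 and 3 and egfp replicate 2. After each group was centred on its mean, r was 0.840 (exact permutation p = 0.0319, adjusted 0.259) and rho was 0.548 (exact permutation p = 0.2125, adjusted 0.435). Without the 2 tumours farthest from the median of fabp11a, r was 0.688 (exact permutation p = 0.133, adjusted 0.333). There rho was 0.829 (exact permutation p = 0.0583, adjusted 0.292), so neither passed a test on 6 tumours, adjusted or not.

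Marker lists of other cell types were set beside these 2 genes. The summed level of the endothelium list, of 6 IDs, was highest in the 3 tumours that were high in fabp11a and lpl. It was 139.7 fpm in egfp replicate 2, 132.5 fpm in dgat1a replicate 1 and 129.5 fpm in dgat1a replicate 3. It was lowest in egfp replicate 1 (71.0 fpm), and between 85.2 and 90.4 fpm in dgat1a replicates 2, 4 and 5. In egfp replicate 3, where both genes were low, it was 118.5 fpm. No single ID had the 3 tumours with the highest sums as its own 3 highest. The gene kdrl was higher in egfp replicate 3 (50.5 fpm) than in dgat1a replicate 3 (46.8 fpm). For pecam1a, egfp replicate 2 was at 9.83 fpm against 14.9 fpm in egfp replicate 3, and FLT4 was highest in dgat1a replicate 5 (5.38 fpm). The skeletal muscle list, of 9 IDs, was high in some of the tumours that were high in fabp11a and lpl. Its summed level was 684.3, 139.8 and 166.2 fpm in dgat1a replicates 1, 3 and 5, and between 1.04 and 14.5 fpm in the other 5, among them egfp replicate 2. It was thus high in dgat1a replicate 5, where fabp11a and lpl were not, and low in egfp replicate 2, where both were. The part of either cell type in the relation was not tested. The adipocyte list, of 7 IDs, summed to 19.0, 244.8 and 191.9 fpm in the egfp tumours and to between 143.1 and 150.8 fpm in the dgat1a tumours, mostly from cfd and CEBPA. The other IDs of that list (ADIPOQ at 2 IDs, CIDEC and lepa) were at or under 1.51 fpm in every tumour, except the leptin gene lepb, which was at 5.57 fpm in dgat1a replicate 3, the tumour with the most cd36 and fabp11a, at 1.84 fpm in dgat1a replicate 2 and at or under 0.496 fpm in the other 6.

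The pair plin2 and pparg had r of 0.648 (exact permutation p = 0.0662, adjusted 0.233) and rho of 0.833 (exact permutation p = 0.0154, adjusted 0.0769). Centred on group means, r was 0.6385 (exact permutation p = 0.1375, adjusted 0.308) and rho was 0.762 (exact permutation p = 0.0819, adjusted 0.435). Leaving out 1 tumour at a time gave r of 0.552 to 0.667, apart from 0.861 (adjusted exact permutation p = 0.0496) without dgat1a replicate 2, the tumour that lies farthest off the relation, so that this value follows from which tumour was left out. Without the 2 tumours farthest from the median of plin2, r was 0.687 (exact permutation p = 0.121, adjusted 0.333). There rho was 0.943 (exact permutation p = 0.0167, adjusted 0.167). The receptor gene did not follow the other members in the same way. Its r was 0.05 with fabp11a (exact permutation p = 0.907, rho 0.119, p = 0.793) and 0.09 with lpl (exact permutation p = 0.820, rho 0.214, p = 0.619), and -0.53 with cd36 (exact permutation p = 0.128, rho -0.72, p = 0.0525). The remaining 5 pairs had r between -0.19 and 0.59, with adjusted p-values of 0.233 or more. All values with cd36 rest on 0 to 4 reads of it in every tumour but dgat1a replicate 3. Tumours with 1 read of cd36 were ranked only by the scaling of their libraries.

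**Figure D2:**
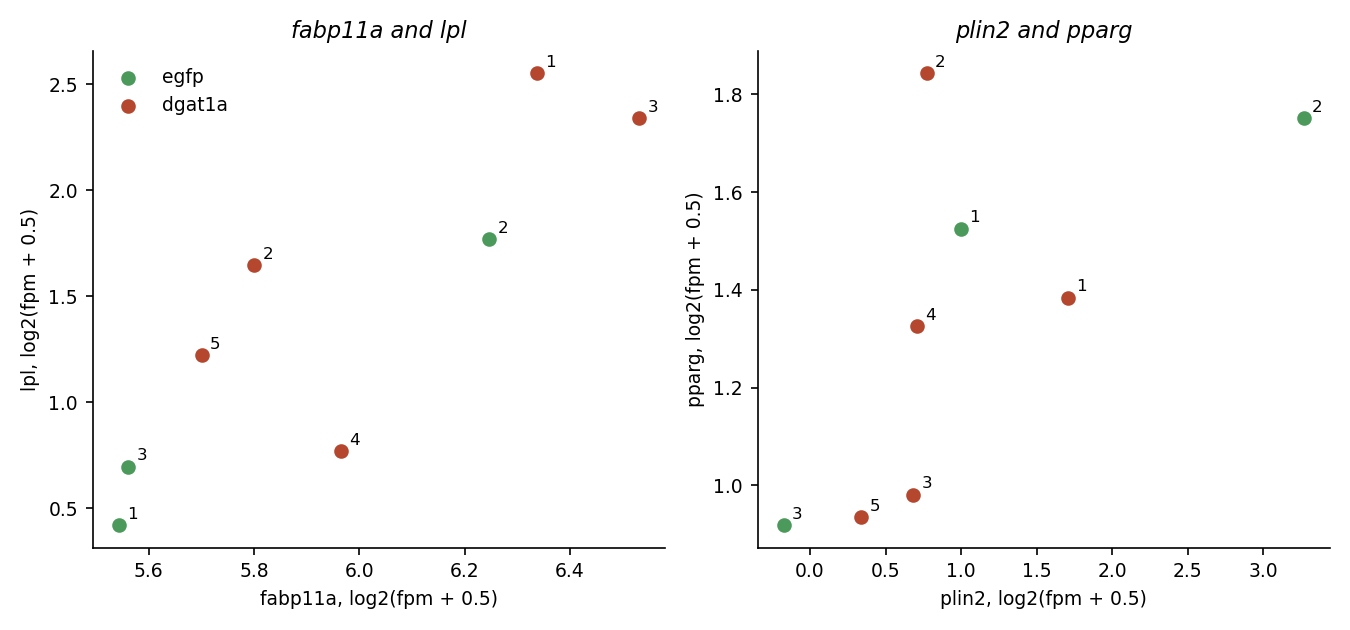
Log2(fpm + 0.5) of lpl against fabp11a (left) and of pparg against plin2 (right), 1 point per tumour, green for egfp and red for dgat1a, with replicate numbers. The left panel rises through both groups (r 0.865, n = 8), and in the right panel dgat1a replicate 2 lies above the other 7 tumours (r 0.648 over all 8).

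Other genes with a like pattern were ranked by Pearson's r of log2(fpm + 0.5) over the 8 tumours, as a description. With 8 tumours and 16853 genes compared, high values are many: 13 genes reached r of 0.9 with plin2, 17 with fabp11a, 20 with lpl, 65 with cd36 and 24 with pparg. The 3 most like plin2 were ENSDARG00000112489 (r 0.946), ENSDARG00000090740 (0.931) and OLFM1 (0.930). For fabp11a they were SAP30L (0.944), fam117ab (0.9395) and brk1 (0.9345), and for lpl they were ciartb (0.952), LDB2 (0.9495) and SNX24 (0.946). The closest to pparg were tcerg1a (0.973), BRD8 (0.966) and faah (0.953), the last of which encodes a hydrolase of fatty acid amides in mammals. For cd36 they were NAALAD2 (0.9845), FOXO1 (0.979) and ENSDARG00000035765 (0.978), and there the measure leans on dgat1a replicate 3, which held 26 of the 35 reads.

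The rest of the pathway was read from lists of genes by role. Symbols in capitals are written as the symbol table gives them. Across all tested genes the median log2 difference was 0.04, and limma called 0.0356% as higher and 0.0178% as lower. The counts below are to be read against 15.0% of all tested genes with an unadjusted limma p under 0.05, 5.14% called by DESeq2 and 10.4% whose groups did not overlap.

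Among droplet coat and droplet-forming genes, 12 IDs matched and 5 had enough signal to be tested. None of the 5 was called with limma or edgeR, 1 had an unadjusted limma p under 0.05, and DESeq2 called 1, the same gene. That gene was plin3, a perilipin that in mammals moves from the cytosol onto forming droplets. It was at 10.4, 27.6 and 41.6 fpm in egfp and at 59.9, 68.1, 101.2, 90.2 and 60.9 fpm in dgat1a tumours. Every dgat1a tumour was thus above every egfp tumour, unlike plin2. Between the groups plin3 differed by 1.67 on the log2 scale (SE 0.41, limma adjusted p = 0.190, DESeq2 adjusted p = 0.0172), and the authors' deposited table lists 1.35 (SE 0.40, adjusted p = 0.0258). Without egfp replicate 1, the lowest tumour, it was 1.12 and DESeq2 no longer called it (adjusted p = 0.0693). FITM2, needed for droplet budding, differed by -0.55 (limma adjusted p = 0.470), BSCL2, which encodes seipin (ENSDARG00000037008), by -0.34 (0.586) and AUP1, which encodes a protein of droplets and the endoplasmic reticulum, by 0.06 (0.904). The list's median was 0.06. The remaining coat and droplet-fusion genes of the list were scarce: 7 of the 12 IDs, among them cidea, cideb, CIDEC and g0s2, had a mean under 1 fpm.

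Of the fatty acid uptake, binding and activation genes, all 24 matched IDs were tested, and none was called by limma, edgeR or DESeq2. At an unadjusted limma p under 0.05 there were 2, and the median log2 difference was 0.12, with 13 of 24 above 0. The groups overlapped in all 24. CAV1, the caveolar coat gene, differed by 1.80 (SE 0.68, limma adjusted p = 0.284), at 7.62, 65.9 and 85.9 fpm in egfp and 80.4 to 194.0 fpm in dgat1a tumours. It was 0.73 without egfp replicate 1, the low tumour. The fatty acid transporter SLC27A4 differed by 0.85 (limma adjusted p = 0.366) and the acyl-CoA synthetase ACSL4 (ENSDARG00000004078) by 0.63 (0.508). The liver and gut type carrier fabp1b.2 differed by -1.72 with limma (SE 1.27, adjusted p = 0.527) and by -4.81 with edgeR (adjusted p = 0.261). It was at 40.5 fpm in egfp replicate 2, the tumour with the most plin2, and at 0 to 1.84 fpm in the other 7. An enterocyte marker list of 11 IDs, added after those values were seen, summed to 5.77 fpm in that tumour and to between 2.95 and 8.20 fpm in the others. Only 1 of the 11 IDs had more than 3 reads in every library, and no liver list was used. The part of gut or liver cells in the fabp1b.2 values was not tested.

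Among partners of lipoprotein lipase and genes of lipolysis, 15 of 18 matched IDs were tested. None was called with limma or edgeR, 2 had an unadjusted limma p under 0.05, and DESeq2 called 1. The median log2 difference was 0.52, with 10 of 15 above 0, and groups did not overlap in 1 gene of 15, against 10.4% of all tested genes. This gene was ANGPTL4, whose product inhibits lipoprotein lipase. It was at 5.51, 8.37 and 5.87 fpm in egfp and at 16.8, 46.8, 96.7, 15.5 and 23.3 fpm in dgat1a tumours. Its lowest dgat1a tumour was above its highest egfp tumour, and the 5 dgat1a tumours themselves spread widely. ANGPTL4 differed by 2.17 on the log2 scale (SE 0.56, limma adjusted p = 0.201, DESeq2 adjusted p = 0.00203), and the authors' deposited table lists 2.06 (SE 0.50, adjusted p = 0.00368). Without egfp replicate 1 it was 2.06 and stayed called by DESeq2 (adjusted p = 0.0319). The endothelial lipase gene LIPG differed by 1.67 (limma adjusted p = 0.303), the low-density lipoprotein receptor gene ldlrb by 1.24 (0.365) and lipeb, a hormone-sensitive lipase gene, by 0.62 (0.389).

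In triacylglycerol synthesis, 14 of 19 matched IDs were tested and limma called 1 higher and 0 lower, with a median of 0.10. The gene called was DGAT1 ENSDARG00000103503, with a log2 difference of 6.08 (SE 0.33, limma adjusted p = 0.00019). Since dgat1a was overexpressed by design, a call of its own ID was fixed in advance and is no result on the pathway. The symbols do not tell which DGAT1 ID is dgat1a, but ENSDARG00000103503 alone was raised. Apart from this ID, limma, edgeR and DESeq2 called no tested gene of the list. At an unadjusted limma p under 0.05 there were 2 of 14, this ID and AGPAT5, against 15.0% of all tested genes. Groups did not overlap in 3 of 14, this ID, AGPAT4 and AGPAT5, against 10.4%. The other DGAT1 ID, ENSDARG00000054914, was at 3.66, 4.54 and 5.52 fpm in egfp and 3.03 to 5.96 fpm in dgat1a tumours, a log2 difference of -0.06 (limma adjusted p = 0.938). AGPAT4 and AGPAT5, named after their values were seen because their groups did not overlap, differed by 0.52 (limma adjusted p = 0.343) and 0.59 (0.273). Both encode acyltransferases of an earlier step of glycerolipid synthesis in mammals.

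Among the PPAR, RXR and related regulators, 18 of 20 matched IDs were tested and none was called with limma or edgeR. At an unadjusted limma p under 0.05 there were 3 of 18, all higher, against 15.0% of all tested genes, DESeq2 called 1 of 18, against 5.14%, and the median was 0.13 with 12 of 18 above 0. The DESeq2 call was CEBPB, a transcription factor that acts upstream of pparg in mammalian fat cell differentiation. It was at 11.7, 51.6 and 27.2 fpm in egfp and at 102.2, 249.4, 181.0, 80.7 and 56.7 fpm in dgat1a tumours, without overlap. CEBPB differed by 2.165 on the log2 scale (SE 0.56, limma adjusted p = 0.201, DESeq2 adjusted p = 0.00853), and the authors' deposited table lists 1.75 (SE 0.49, adjusted p = 0.0158). Without egfp replicate 1 it was 1.62 and not called by DESeq2 (adjusted p = 0.0896). CEBPA differed by 0.98 (limma adjusted p = 0.267), CEBPD by 1.46 (0.458, and 0.16 without egfp replicate 1) and the coactivator gene ppargc1b by -0.52 (0.442).

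A second nuclear receptor gene, PPARA ENSDARG00000054323, was named after its values were seen. Its egfp tumours were at 2.82, 3.26 and 2.74 fpm and its dgat1a tumours at 5.01, 7.93, 5.07, 4.34 and 6.38 fpm, without overlap. Groups did not overlap in 2 of the 18 tested regulators, CEBPB and PPARA, against 10.4% of all tested genes, and they overlapped for pparg, above. In mammals PPARA switches on fatty acid oxidation. The log2 difference of PPARA was 0.83 (SE 0.28, limma adjusted p = 0.242, DESeq2 adjusted p = 0.0600), and the authors' deposited table lists 0.91 (SE 0.29, adjusted p = 0.0458). It had an adjusted p under 0.05 in 1 of 24 fits. The list also holds pparaa ENSDARG00000031777, whose groups overlapped, with a log2 difference of -0.115 (limma adjusted p = 0.905). Whether PPARA and pparg differ in their change was not tested.

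Of 25 matched fatty acid oxidation genes, 24 were tested and none was called with limma or edgeR. 1 had an unadjusted limma p under 0.05, DESeq2 called that gene, and the median was -0.10 with 9 of 24 above 0. It was ucp3, a mitochondrial uncoupling protein gene, at 1.28, 2.69 and 1.12 fpm in egfp and 13.6, 10.8, 2.58, 5.43 and 3.36 fpm in dgat1a tumours. The groups overlapped, since dgat1a replicate 3 was below egfp replicate 2. The difference of ucp3 was 1.63 on the log2 scale (SE 0.54, limma adjusted p = 0.242, DESeq2 adjusted p = 0.0310), and the authors' deposited table lists 1.65 (SE 0.50, adjusted p = 0.0323). Without egfp replicate 1 DESeq2 did not call it (adjusted p = 0.183). In mammals ucp3 is mainly a muscle gene. The skeletal muscle list summed to 684.3, 3.84, 139.8, 2.99 and 166.2 fpm in dgat1a replicates 1 to 5 and to between 1.04 and 14.5 fpm in the egfp tumours. The part of muscle in the ucp3 values was not tested. UCP2 differed by 1.143 (limma adjusted p = 0.422) and ACADM, of mitochondrial oxidation, by -0.71 (0.355). CPT1A ENSDARG00000059770, the gate of fatty acid entry into mitochondria, was named after its values were seen, as the 1 tested gene of the list without overlap. It was at 97.3, 93.2 and 88.8 fpm in egfp and at 80.1, 83.3, 74.4, 84.6 and 81.1 fpm in dgat1a tumours. The dgat1a values were all below the egfp values, by a small step, with a log2 difference of -0.205 (SE 0.16, limma adjusted p = 0.540).

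**Figure D3:**
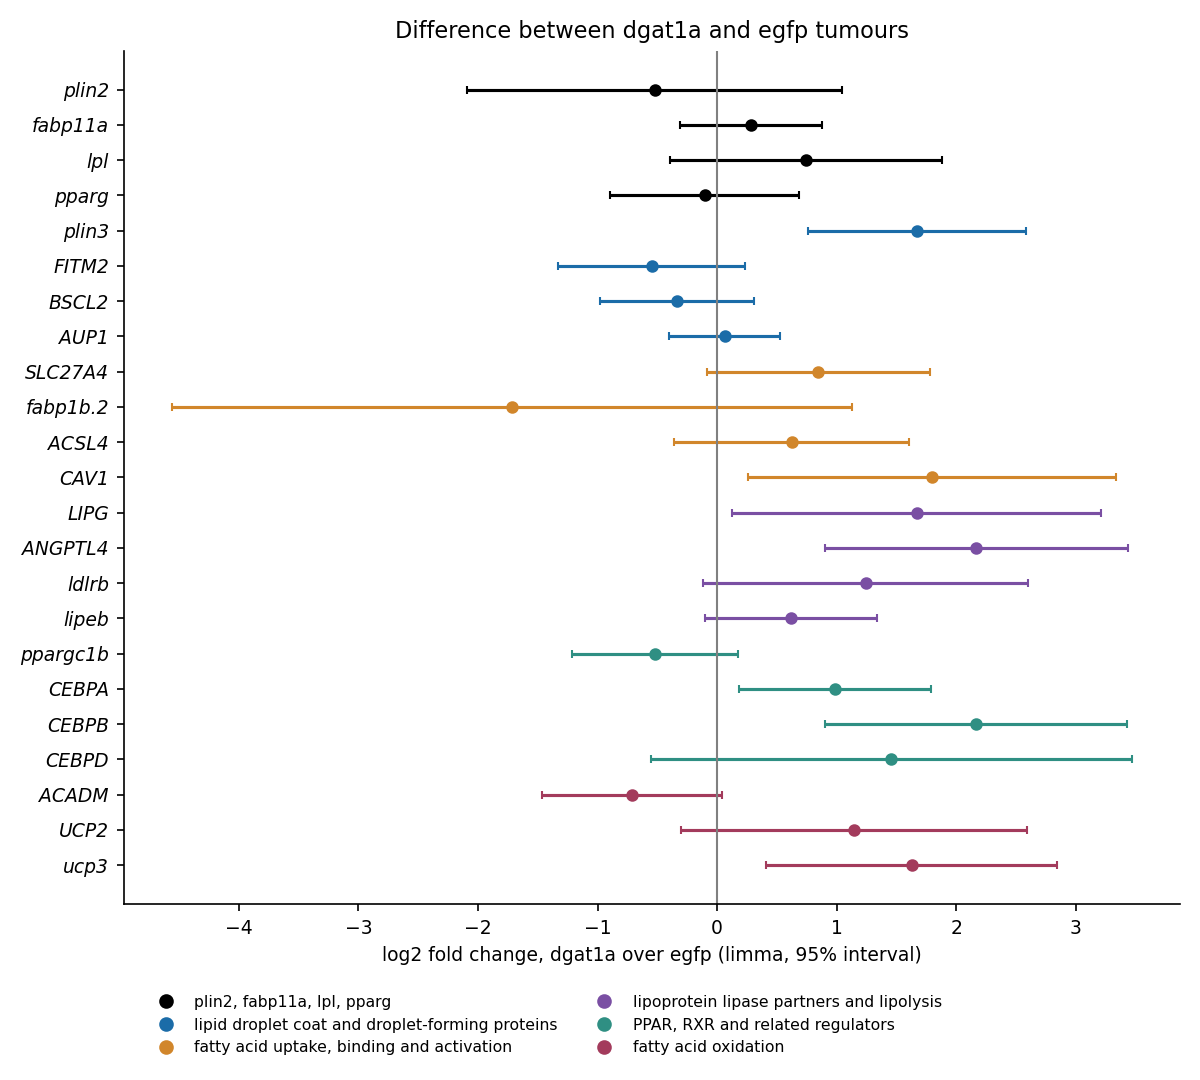
Log2 difference (dgat1a minus egfp, limma on log2(fpm + 0.5)) with its 95% interval for plin2, fabp11a, lpl and pparg (black) and for the genes named by rule from 5 lists of related genes (colours), without DGAT1 and 1 gene that is not reported here. The intervals of the 4 members all include 0; those of plin3, CAV1, LIPG, ANGPTL4, CEBPA, CEBPB and ucp3 do not, but none of these has a limma adjusted p under 0.05. The coloured genes were named for the largest differences of their lists in this same fit, so their intervals are no separate support. Of all tested genes, 15.0% had an unadjusted limma p under 0.05.

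**Figure D4:**
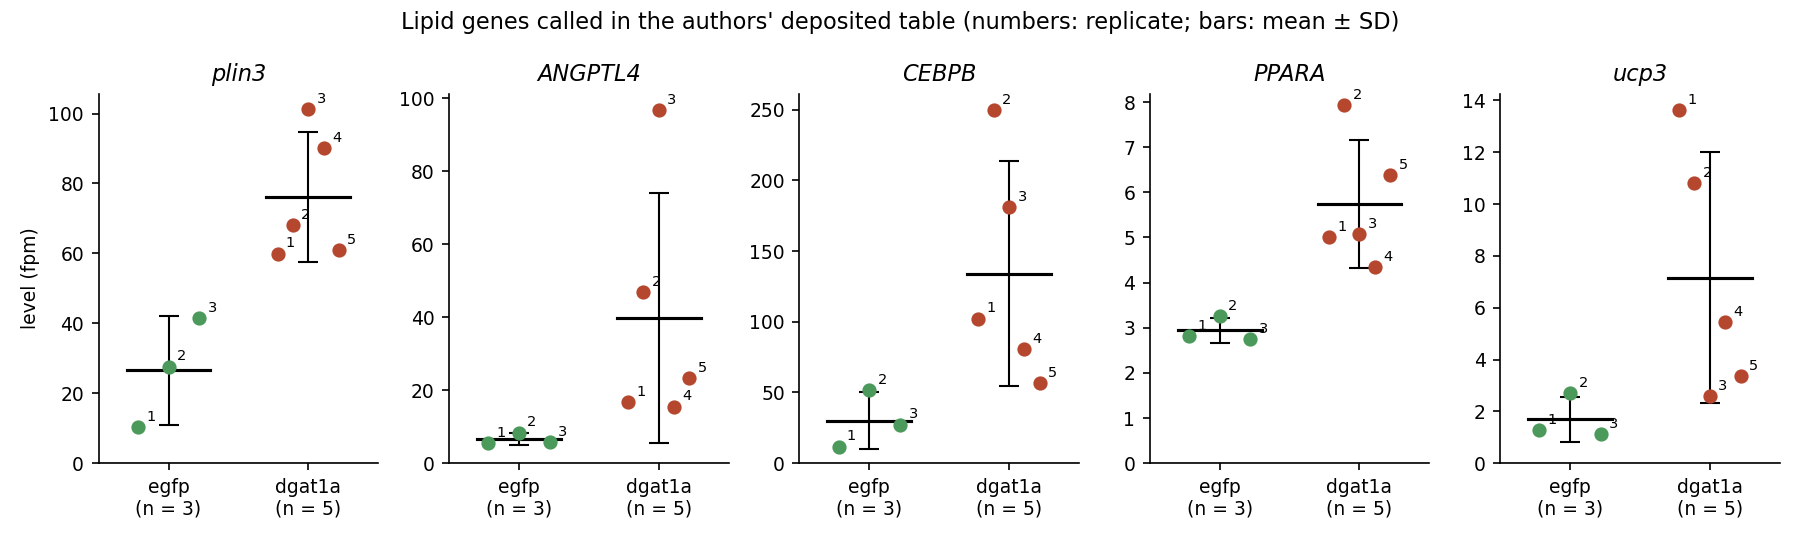
Level in fpm (linear axis, one scale per gene) in the 3 egfp and 5 dgat1a tumours of the 5 listed lipid genes other than DGAT1 that the authors' deposited table calls, with replicate numbers, means and bars of 1 SD. The groups do not overlap for plin3, ANGPTL4, CEBPB and PPARA, and they overlap for ucp3. The genes were chosen for being called, so this is no separate support. Of IDs with an adjusted p there, 1 of 8 droplet coat, 0 of 22 uptake and 1 of 16 lipase partner IDs were called. So were 2 of 18 regulators, 1 of 25 oxidation genes and, in triacylglycerol synthesis, only DGAT1 of 16. Of all 18977 such genes 4.34% were called. DGAT1 is the symbol of the gene overexpressed by design.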

How the data were processed

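RNA was sequenced from 8 zebrafish melanomas, extracted with Trizol and prepared with standard Illumina protocols, per the labels' protocols. The submitters' processing notes name STAR 2.5.3, featureCounts 1.6.2, DESeq2 1.14.1 and the build GRCz11. Strandedness and the annotation are not given in the sources used here, so reads shared by overlapping or near-identical genes could not be assessed, and gene positions were not used here.

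The authors deposited 3 tables. The first holds a per-million signal (fpm) in which 100% of values were whole multiples of 1 read within 0.01, so whole reads were recovered. The second holds variance-stabilised values on a log2 scale, deposited by the authors. The third is the authors' comparison, with a mean signal, log2 fold change, a score (their test statistic), p-value and adjusted p-value, per the file headers. Floors cover counting error only.

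Genes averaging 1 fpm or more over the 8 tumours (16853) entered a limma 3.58.1 fit under R 4.3.3 (eBayes with an intensity trend) on log2(fpm + 0.5), two-sided, with Benjamini-Hochberg adjustment at 0.05. That scale understates changes of low genes. edgeR 4.0.16 (quasi-likelihood) and DESeq2 1.42.0 on recovered reads were alternatives, with other pseudocounts, filters, scalings and left-out tumours. Correlations used exact permutations. The limma, edgeR and DESeq2 fits of all 8 tumours were run on simulated counts as a check. The other alternatives and the correlations were not.

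Symbols came from a gene table that named 21017 of the 22416 IDs. It lists fabp11a as fabp4a. List genes were named when past the adjusted threshold, and otherwise up to 4 per list with the largest differences at a mean of at least 5 fpm, of which 1 gene is not reported here. The members and lists were chosen with earlier results of these data known. No label gives a batch. No pair of libraries agreed within sampling noise (smallest chi-square 79.3 per degree of freedom).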

Additional observations from a re-analysis of the deposited data

Results flagged for a closer look

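In 6 of the 26 genes examined 1 dgat1a tumour stood far from the other 4, with a gap to its neighbour of more than 0.71 of the group's range (Dixon's 95% critical value for 5 samples). For normally distributed values chance gives this for about 1 in 20 groups. The gaps were taken on fpm, not on log2 values, and all 6 were at the high end, so that share need not hold here. For plin2 it was dgat1a replicate 1 at 2.77 fpm, with the next tumour at 1.21 fpm. For cd36 it was dgat1a replicate 3 at 1.20 fpm, with the next at 0.153 fpm. The other 4 were all highest in dgat1a replicate 2. There fabp1b.2 was at 1.84 fpm (next 0.308 fpm), SLC27A4 at 19.5 fpm (next 8.43 fpm), ppargc1b at 97.6 fpm (next 53.2 fpm) and UCP2 at 1113 fpm (next 344.5 fpm). That tumour also had the highest summed melanocyte marker level, 18700 fpm, of which pmela gave 13275 fpm. There TYR, pmela, OCA2 and TYRP1 ENSDARG00000056151 were at their highest, the other IDs of the list were not, and MITF ENSDARG00000003732 was at its lowest (684.9 fpm). Its summed macrophage and neutrophil level, 557.0 fpm, was the highest too. Of that list csf1ra and marco were highest there, ptprc and SPI1 in dgat1a replicate 4 and lyz in dgat1a replicate 5. The part of these cell types in the flagged values was not tested. The limma fit without dgat1a replicate 2 called no member.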

How the results depend on the processing

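No member was called under any alternative. Over up to 25 fits the log2 difference ranged from -1.77 to 0.43 for plin2, from 0.15 to 0.51 for fabp11a, from 0.47 to 1.22 for lpl and from -0.34 to 0.07 for pparg. A minimum mean of 5 fpm left fabp11a as the only member tested. The sign turned for plin2 without egfp replicate 2 (0.4298, the highest of the limma fits that left out 1 tumour, against a lowest of -1.291) and for pparg without egfp replicate 2 (0.0718), with dgat1a replicates 1 to 3 only (0.0045) and with the replicate block (0.0045). cd36 was fitted only without a filter, at 0.36 with limma (adjusted p = 0.689) and 2.63 with edgeR (adjusted p = 0.475), while DESeq2 gave no adjusted p.

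The tool moved the count of called genes most. Against 9 with limma, edgeR called 3 with or without a filter, DESeq2 called 866, 923 without a filter and 272 without egfp replicate 1, and limma on dgat1a replicates 1 to 3 called 5. Leaving out 1 tumour gave 5 (without egfp replicate 1) to 55 genes (without egfp replicate 2), and the cause of these differences was not tested.

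Deviations of same-numbered tumours from their group means had correlations of 0.240, 0.0734 and 0.00708 across genes, for replicates 1 to 3. Different-numbered tumours ranged from -0.226 (egfp replicate 2 with dgat1a replicate 1) to 0.0921 (egfp replicate 1 with dgat1a replicate 3). These values do not settle whether the numbers mark pairs. With the replicate block limma called 0 genes (2085 at an unadjusted p under 0.05), among the triacylglycerol genes 0 in place of 1, with DGAT1 at 6.20 (adjusted p = 0.0753).

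In the lists, DESeq2 called 1 droplet coat, 1 lipoprotein lipase partner, 1 regulator and 1 oxidation gene where limma called 0. Without a filter it called 1, 1, 2 and 1, and without egfp replicate 1 it called 1 lipoprotein lipase partner and no other of these. AUP1 turned to -0.0905 without egfp replicate 3 and -0.0011 without dgat1a replicate 4, and was highest, 0.1991, without egfp replicate 1.

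Of the 10 pairs of members, 0 had an adjusted p of r under 0.05, and 1 without dgat1a replicate 2 and 1 without dgat1a replicate 4 (fabp11a and lpl, r 0.922). Some correlations changed sign, among them that of fabp11a with cd36, whose r was 0.587 over all 8 tumours. Without the 2 farthest tumours r was 0.0063 for plin2 with cd36 and -0.0963 for fabp11a with cd36, and without dgat1a replicate 3 the latter was -0.1002 (highest 0.7169, without dgat1a replicate 1). For fabp11a with pparg it was -0.1147, -0.1893 and -0.0893 without egfp replicates 2 and 3 and dgat1a replicate 5, and for lpl with pparg it was -0.0972 without egfp replicate 3. With 1 tumour left out, the highest values of these pairs were 0.3977 and 0.3418, both without dgat1a replicate 3. Depth limits cd36 most, and also plin2 (10 to 207 reads), lpl (19 to 122 reads) and pparg (32 to 74 reads).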
